A study of Mus musculus with 8 samples.

Results

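Mature medullary thymic epithelial cells (mTEC) were compared with epithelial cells of the small intestine (SIEC) across the genes of a whole-genome mouse array, on which 24139 of 34759 gene names could be tested. All 6 mTEC arrays and both SIEC arrays entered, which is all 8 arrays of the series, with the Cdx1 genotypes weighted equally within each tissue. The mTEC pools, 3 Cdx1+/+ and 3 Cdx1-/-, each held cells from 4 to 6 thymi and were sorted as Epcam+ UEA1+ CD45- Fluorogold- CD80hi MHCIIhi cells. The SIEC pools, 1 labelled Cdx1+/+ and 1 labelled Cdx1-/-, each held cells of 3 mice sorted as Epcam+ CD45- Fluorogold- cells. All mice were of a mixed C57BL/6 and 129 background, and the allele behind the Cdx1-/- label, a loss of the caudal-type homeobox factor Cdx1, is not described further in the labels. No source used here states sex, age or the segment of intestine taken. The series title asks how Cdx1 loss bears on ectopic expression in mTEC, and the SIEC arrays show the same genes in the organ that many of them serve.

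Medullary thymic epithelial cells present proteins of many other organs to developing T cells, so that T cells that recognise the body's own proteins are removed or diverted. The transcription regulator Aire, with Fezf2 for a further set of genes, drives much of this ectopic expression, and mature mTEC carry high MHC class II and CD80 through RANK, CD40 and NF-kB signalling. The epithelium of the small intestine renews continuously from stem cells in the crypts. It holds absorptive enterocytes, whose brush border of microvilli carries digestive enzymes and transporters, together with goblet, Paneth, enteroendocrine and tuft cells. Factors such as Cdx2, Hnf4a and Gata4 or Gata6 maintain its programme.

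Every array carried the same 59305 non-control spots in 1 colour (Cy3). A level is the log2 processed signal minus the 75th percentile of its array, and a difference is SIEC minus mTEC on that scale. A gene is called detected in mTEC when a probe of it was flagged well above background on at least 3 of the 6 arrays, and in SIEC when on both. The mTEC arrays had 58.6% to 63.5% of spots well above background and the SIEC arrays 46.3% and 44.6%. The 75th percentile of signal was 458 to 888 on the mTEC arrays and 321 and 257 on the SIEC arrays, and the lowest levels flagged as above background were −5.35 to −4.65 in mTEC and −4.02 and −3.56 in SIEC. Levels correlated across probes by 0.985 to 0.992 between mTEC arrays, by 0.982 between the SIEC arrays and by 0.832 to 0.836 between tissues. Where a gene was above background on no array of a tissue its fold is given as a lower bound ("at least"), set against the lowest signal flagged above background on those arrays or the probe's own, if higher. The scale itself matters, since the median difference of all 24139 tested genes was 0.39, and 0.52, 0.87, −0.45 and 0.10 after normexp background correction, scaling to the median, scaling to the probes above background on every array, and quantile normalization.

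Cdx1 itself was measured first, as a check of the labels. The Cdx1 probe read 5.88, 5.90 and 5.96 in Cdx1+/+ mTEC and 4.80, 4.98 and 5.00 in Cdx1-/- mTEC. It read 4.87 on the SIEC array labelled Cdx1+/+ and 6.48 on the SIEC array labelled Cdx1-/-, which goes against that label. The probe may lie outside the deleted part, in which case it checks nothing, and an exchange of the 2 SIEC labels cannot be told apart from this. The intestine arrays are therefore named by label throughout. The same 2 arrays differed in opposite ways at sex-linked genes. Xist, the RNA of the inactive X, read 0.87 and −5.59, and the Y-linked Eif2s3y −5.98 and 2.11 (Cdx1+/+ label first, as in every pair of SIEC values here). On the mTEC arrays Xist lay from −1.58 to −0.23 and Eif2s3y from −0.35 to 0.87, between the SIEC values. None of the 4 sex-linked genes tested passed the tissue comparison. With 1 pool of each label, genotype, sex-linked differences and pool cannot be told apart within intestine.

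The defining markers separated the tissues on every array. Krt17, a keratin of basal and stress-activated epithelia (probe at chr11:100117535-100117594, mm9), read 7.83 to 8.18 (median 7.98) on the mTEC arrays and −5.81 and −5.39 on the SIEC arrays. No SIEC array had it above background, so it was at least 3533-fold higher in mTEC (limma, adjusted p = 1.12e-09), the largest fitted difference of any tested gene with an ordinary symbol. Aire (chr10:77498487-77498546) read 3.27 to 3.49 (median 3.43) in mTEC and −5.14 and −4.55 in SIEC, again not above background there, at least 146-fold apart (adjusted p = 3.49e-09). Vil1 (chr1:74481982-74482041), which encodes the microvillus actin bundler villin, was above background on all 8 arrays. It read 0.85 to 2.19 (median 1.48) in mTEC and 7.51 and 8.01 in SIEC, a difference of 6.28 (SE 0.31, adjusted p = 4.01e-07). Lct (chr1:130181389-130181448), the lactase of the brush border, read −0.90 to −0.30 (median −0.56) in mTEC and 7.19 and 8.14 in SIEC, a difference of 8.27 (SE 0.27, adjusted p = 4.04e-08). The mTEC and SIEC arrays did not overlap at any of these 4 genes.

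**Figure D1:**
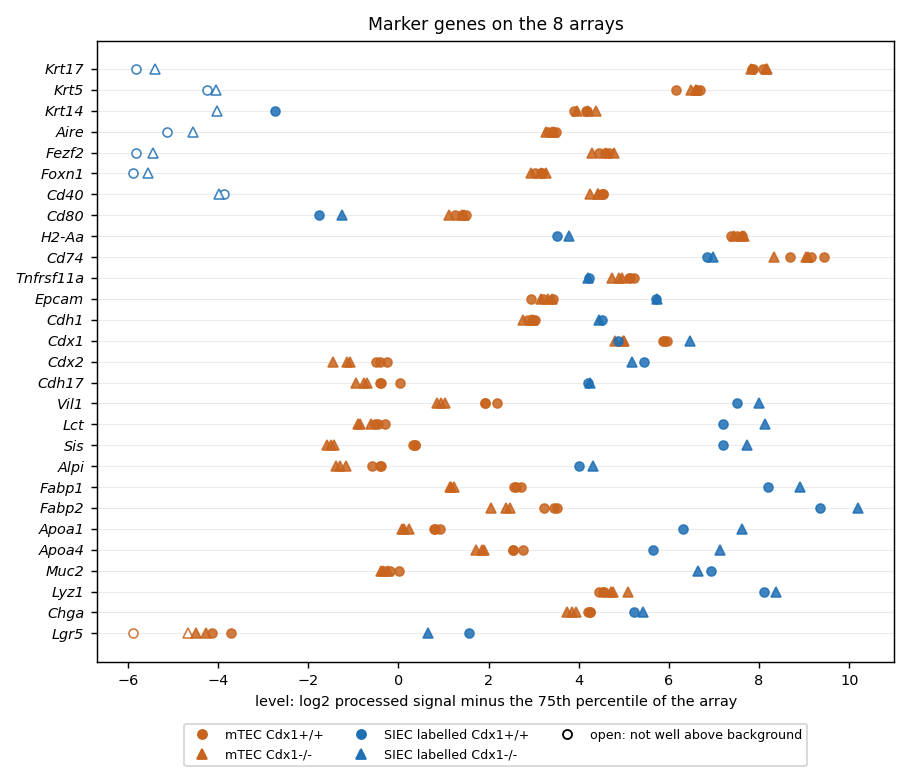
Level of each marker gene (rows) on each of the 8 arrays, as log2 processed signal minus the 75th percentile of the array. Orange marks mTEC and blue SIEC, circles the Cdx1+/+ and triangles the Cdx1-/- label, and open symbols arrays on which the gene was not well above background. The mTEC markers from Krt17 to Cd40 have open SIEC symbols apart from 1 SIEC array at Krt14, while the intestinal markers from Vil1 to Lgr5 have filled mTEC symbols, except Lgr5 on 2 arrays.

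Other markers followed the same order with different margins. The keratin gene Krt5 (6.16 to 6.70, median 6.60, against −4.24 and −4.04), the ectopic expression regulator gene Fezf2 (4.29 to 4.79, median 4.60, against −5.82 and −5.44) and the thymic master regulator gene Foxn1 (2.94 to 3.27, median 3.17, against −5.88 and −5.55) were above background on no SIEC array. Cd80 and MHC class II were part of the mTEC gate and Epcam of both gates, so their differences are no finding between the groups. The class II gene H2-Aa read 7.38 to 7.66 (median 7.57) against 3.53 and 3.77. Cd80 read 1.13 to 1.51 (median 1.41) in mTEC and −1.77 and −1.25 in SIEC, so both were also above background in SIEC. Tnfrsf11a, the RANK receptor gene through which mTEC mature, read 4.75 to 5.22 (median 5.04) in mTEC and 4.24 and 4.21 in SIEC, a difference of −0.79 (SE 0.11, adjusted p = 2.62e-04) that did not pass within slide 2. Epcam and the E-cadherin gene Cdh1, which join epithelial cells, were higher in SIEC by 2.48 and 1.55. Cdx2 differed by 6.12 (−1.44 to −0.25, median −0.79, against 5.44 and 5.19), but Cdx1 did not pass (difference 0.25, SE 0.48, adjusted p = 0.632).

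Most genes differed between the tissues. Of 24139 genes tested, 20434 passed limma's test at an adjusted p under 0.05, which is 84.7%, and 19767 of these had all arrays of the tissues apart. Those higher in SIEC numbered 11895 (49.3% of the genes tested) and those higher in mTEC 8539 (35.4%). With so high a background, counts of members that pass are read below against these shares, and the size of a difference says more than the call. At least 8-fold differences held for 4535 genes (18.8%), 1137 higher in SIEC (4.71%) and 3398 higher in mTEC (14.1%). The split between directions moved with the scale: 58.2% of calls were higher in SIEC here, 69.4% with normexp, 65.8% when scaled to the median or in the authors' deposited table, 34.1% when scaled to the probes above background on every array, and 52.7% after quantile normalization. It was 69.2% with no filter on dim probes and 78.7% with only genes above background on all 8 arrays. Such p-values measure only the spread between these pools, and most of that spread comes from the mTEC side. In pooled RNA, fewer cells of a type and less RNA per cell cannot be told apart. Every gene given below with a level, difference or fold passed the test with the mTEC and SIEC arrays not overlapping, except Nt5e, Ada, Cdx1, Xist and Eif2s3y. Rag2 and Pdgfra, also named below, were above background on no array and were not tested. Over the 261 named genes that were tested, the SE of the difference ran from 0.09 to 1.51 with a median of 0.19.

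The slides split the arrays unevenly. Slide 1 held 5 mTEC arrays, and slide 2 held Cdx1-/- mTEC replicate 1 with both SIEC arrays. With slide as a block, 10876 genes passed towards SIEC and 7517 towards mTEC, and within slide 2 the counts were 7843 and 6504 (3 arrays). The counts of at least 8-fold differences were 1224 and 3319 with the block, and 1246 and 3343 within slide 2. Krt17, Aire, Vil1 and Lct differed within slide 2 by −13.44, −8.12, 6.72 and 8.52. Of the genes named below Chuk, Clca4a, Fmo1, Gstm1, Irgm2, Klf4, Nos2, Sox4 and Trim21 did not pass within slide 2, where mTEC has a single array, so that a lost call can come from the fewer arrays alone. Their directions held there, with differences of 0.96 for Chuk, 4.27 for Clca4a, −0.66 for Fmo1, −0.88 for Gstm1, 1.01 for Irgm2, −0.81 for Klf4, −0.98 for Nos2, −0.80 for Sox4 and 0.50 for Trim21. Trim21 also lost its call with the block (0.57).

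Far more genes were detected in mTEC than in SIEC. Of 19740 ordinary gene symbols on the array, 16385 were detected in mTEC and 11924 in SIEC, and 11812 in both. Almost everything seen in intestine was therefore also seen in mTEC, 99.1% of the SIEC genes, whereas 72.1% of the mTEC genes were seen in SIEC. A further 112 genes were detected in SIEC but not in mTEC (235 when all arrays of a tissue were required), against 4573 the other way. The brighter mTEC arrays can flag dimmer levels, so the count was repeated, after the data were seen, with the highest floor of any array applied to all 8. That left 15249 genes in mTEC and 11887 in SIEC, with 364 in SIEC and not mTEC, and 96.9% of the SIEC genes still shared. With only 2 mTEC arrays set against the 2 SIEC arrays, 16111 and 11924 genes were detected and 98.7% of the SIEC genes were shared. The overlap also held for strongly intestinal genes. Of 831 ordinary genes at least 8-fold higher in SIEC, 752 (90.5%, against 83.0% of all ordinary symbols) were detected in mTEC. Of these, 714 were above background on all 6 arrays, and 46 of the 831 were above background on none. In the opposite direction, 2836 genes were at least 8-fold higher in mTEC. Of these, 513 (18.1%, against 60.4% of all ordinary symbols) were detected in SIEC, with 2077 above background on neither SIEC array. Both sets were chosen by the difference itself, so low detection on the lower side follows in part from that choice. The highest floor was not applied to these 2 sets.

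**Figure D2:**
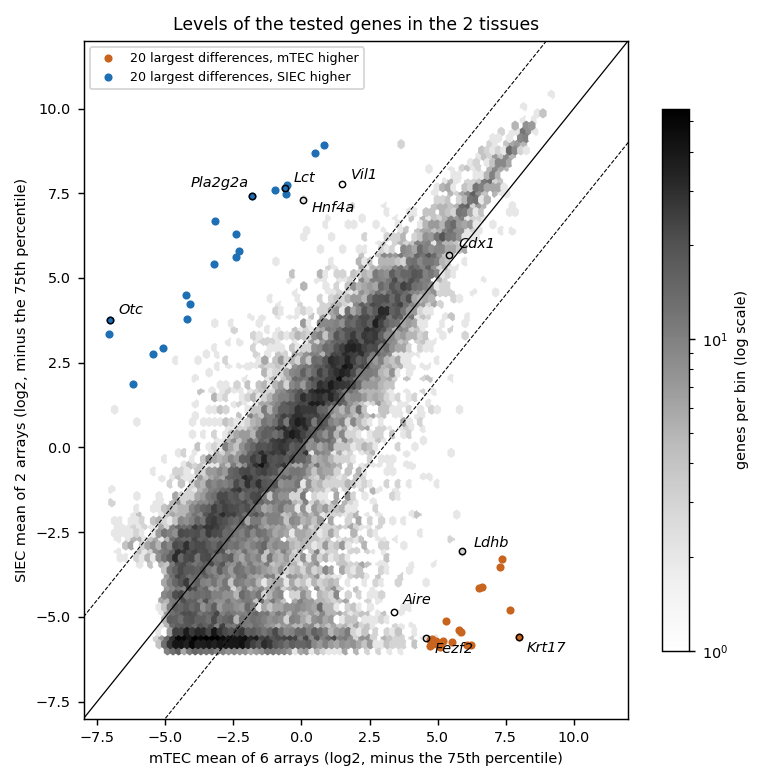
Mean level in SIEC (2 arrays, vertical) against mean level in mTEC (6 arrays, horizontal) for the 24139 tested genes, both as log2 signal minus the 75th percentile, with darker bins holding more genes on a log colour scale. The solid line marks equality and the dashed lines 8-fold differences, which 3398 genes passed towards mTEC and 1137 towards SIEC. Orange and blue points are the 20 genes of largest difference in each direction.

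The 20 largest differences towards mTEC included genes known from many organs. None of the following was above background on either SIEC array. Alox12e, an epidermal lipoxygenase gene, read 7.45 to 7.80 (median 7.68) in mTEC and −5.83 and −3.74 in SIEC, at least 2781-fold higher. Fabp4, the fatty acid-binding protein gene of fat cells, read 6.06 to 6.46 (median 6.21) against −5.99 and −5.65 (at least 1033-fold). The acute-phase serum amyloid gene Saa3 read 5.40 to 6.40 (median 5.86) against −5.60 and −5.28 (at least 811-fold). Others among the 20 were Cyp2a4, a steroid hydroxylase gene of liver (at least 945-fold), the neuronal gamma-synuclein gene Sncg (at least 631-fold), the airway surface protein gene Bpifa1 (at least 473-fold), the gastric trefoil peptide gene Tff1 (at least 505-fold) and the fast-muscle actinin gene Actn3 (at least 426-fold). So were the leukocyte adhesion gene Vcam1 (at least 473-fold), the metabolic hormone gene Fgf21 (at least 362-fold) and the neutrophil calgranulin gene S100a8 (at least 554-fold). Cbr2, a lung carbonyl reductase gene, differed by −10.81 and was above background on 1 SIEC array.

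Towards SIEC the gene of largest difference was Otc, for the urea cycle enzyme ornithine transcarbamylase. It read 4.01 and 3.52 in SIEC and was above background on no mTEC array, at least 412-fold apart (adjusted p = 5.63e-09). Smlr1 was likewise not above background in mTEC and at least 309-fold higher in SIEC. For most of the 20, however, mTEC carried a measurable level. Pla2g2a, a phospholipase of Paneth cells that kills bacteria, read −2.57 to −1.03 (median −1.82) in mTEC and 7.22 and 7.63 in SIEC, a difference of 9.24. The retinol-binding protein gene Rbp2 differed by 8.72, the claudin gene Cldn15 by 8.71, the lectin-like gene Clec2h by 9.84, the peptidase gene Naaladl1 by 8.60 and Slc7a9, a cystine and basic amino acid transporter gene, by 8.10. Among the 20 were also 3 alpha defensin genes or pseudogenes, Defa26, Defa-ps1 and Defa30, whose near-identical copies share probe sequence, so the values belong to the group rather than to single members.

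Promoter sequences are shown for a few genes whose transcripts are among the intestinal and inflammatory genes described here. Every one shown holds its marked motif, so the examples say nothing of how common a motif is. The shares over all genes are given after them. The sequences are the 250 bases before the start of the gene in RefSeq (GRCm38.p6), read 5′ to 3′ along the gene's strand, with the motif in capitals. For Alpi, intestinal alkaline phosphatase (chr1:87101607-87101856, minus strand), and Treh, trehalase (chr9:44672983-44673232, plus strand), the motif is the HNF4 form CAAAGTCCA, which in Treh stands on the opposite strand and reads TGGACTTTG.
Alpi: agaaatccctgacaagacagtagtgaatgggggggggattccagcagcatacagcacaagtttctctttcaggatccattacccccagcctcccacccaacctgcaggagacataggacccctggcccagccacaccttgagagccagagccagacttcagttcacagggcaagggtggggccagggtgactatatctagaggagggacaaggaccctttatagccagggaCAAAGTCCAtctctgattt
Treh: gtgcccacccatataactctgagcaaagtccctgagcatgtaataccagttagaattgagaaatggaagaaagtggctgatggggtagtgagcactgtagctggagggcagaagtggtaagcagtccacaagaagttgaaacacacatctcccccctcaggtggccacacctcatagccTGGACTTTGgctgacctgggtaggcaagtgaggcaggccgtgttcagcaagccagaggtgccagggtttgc
The HNF4 match began 19 bases before the start of Alpi and 71 before that of Treh. For the lactase gene Lct (chr1:128328319-128328568, minus strand) and the sucrase-isomaltase gene Sis (chr3:72967864-72968113, minus strand), the motif is the caudal-type CATAAA, which in Sis stands on the opposite strand.
Lct: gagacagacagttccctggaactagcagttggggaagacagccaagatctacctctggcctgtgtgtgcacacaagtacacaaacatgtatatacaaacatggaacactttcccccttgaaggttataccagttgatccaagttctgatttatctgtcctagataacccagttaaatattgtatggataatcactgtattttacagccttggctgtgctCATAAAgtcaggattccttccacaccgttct
Sis: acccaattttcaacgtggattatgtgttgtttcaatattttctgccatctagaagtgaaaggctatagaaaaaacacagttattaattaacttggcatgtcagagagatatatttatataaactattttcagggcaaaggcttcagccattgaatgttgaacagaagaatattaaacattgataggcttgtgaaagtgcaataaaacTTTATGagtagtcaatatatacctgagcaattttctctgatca
Those matches lay 31 and 43 bases before the start. For Cxcl10, a T cell-attracting chemokine gene (chr5:92348890-92349139, minus strand), and Saa3 (chr7:46715677-46715926, minus strand), both higher in mTEC, the motif is GAAA, any 2 bases and GAAA, the core of interferon response elements.
Cxcl10: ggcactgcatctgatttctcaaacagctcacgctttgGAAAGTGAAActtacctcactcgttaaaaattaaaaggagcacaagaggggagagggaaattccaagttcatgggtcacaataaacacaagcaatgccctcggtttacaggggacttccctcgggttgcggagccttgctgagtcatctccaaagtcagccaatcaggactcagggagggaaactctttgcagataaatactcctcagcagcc
Saa3: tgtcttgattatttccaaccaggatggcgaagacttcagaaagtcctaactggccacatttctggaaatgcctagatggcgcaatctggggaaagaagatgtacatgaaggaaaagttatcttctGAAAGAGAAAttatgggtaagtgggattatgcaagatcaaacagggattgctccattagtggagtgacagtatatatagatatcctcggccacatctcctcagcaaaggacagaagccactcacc
It lay 213 bases before the start in Cxcl10 and 125 in Saa3.

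Across all 250-base promoters, counted on both strands, the HNF4 letters were held more often by SIEC genes than by mTEC genes. Of 683 genes at least 8-fold higher in SIEC with a RefSeq entry, 13 held CAAAGTCCA (1.90%), against 5 of 2278 genes at least 8-fold higher in mTEC (0.220%), 58 of 14081 tested genes (0.412%) and 103 of all 27025 promoters (0.381%). At a 4-fold threshold the shares were 0.905% and 0.242%. Holders among the SIEC genes were Alpi, Treh, B3gnt3, Cd302, Cyp2c65, Cyp2c67, Cyp2c68, Cyp3a11, Gm9917, H2-T3, Slc3a1, Tmem150b and Trim31. The Cyp2c genes are near-identical copies in 1 cluster and do not count as separate promoters. The other motifs were held by similar shares of both sets. CATAAA was held by 8.78% of the SIEC and 10.2% of the mTEC set (7.37% of tested genes, 11.1% of all promoters). The GATA letters AGATAA were held by 11.4% and 10.1% (7.50% and 10.3%). The NF-kB form GGGA, any 4 bases, CC was held by 22.3% and 22.0% (21.4% and 17.3%), and the interferon form by 3.66% and 2.94% (2.71% and 3.04%). Matches of letters in 1 window say nothing of whether a factor binds there.

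Most intestinal programme genes were higher in SIEC, and most were also detected in mTEC. Of 277 such genes on the array, 263 were detected in mTEC (94.9%, against 83.0% of all ordinary symbols) and 256 in SIEC (92.4%, against 60.4%). With the highest array floor applied throughout, the counts were 245 in mTEC (88.4%) and 255 in SIEC (92.1%). Of all ordinary symbols, 77.2% and 60.2% were then detected. Of the intestinal genes tested, 224 were higher in SIEC (against 49.3% of all genes), 30 in mTEC (against 35.4%) and 18 did not pass. Brush border hydrolases, the enzymes that complete digestion at the cell surface, gave 20 of 24 higher in SIEC, 19 of them by at least 8-fold (against 4.71% of all genes), and a median difference of 5.17. Sis read −1.59 to 0.38 (median −0.55) in mTEC and 7.20 and 7.73 in SIEC (difference 8.04, SE 0.44). Enpp7, which digests sphingomyelin, was above background on no mTEC array and at least 58.4-fold higher in SIEC. Treh differed by 6.55, the meprin subunit gene Mep1b by 6.54 and Alpi by 5.04. The other 4 were higher in mTEC, among them the tissue-nonspecific phosphatase gene Alpl (at least 8.95-fold) and the enteropeptidase gene Tmprss15 (−0.71 to −0.51, median −0.62, in mTEC, −3.35 and −2.81 in SIEC). Enteropeptidase activates trypsinogen in the duodenum.

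Microvillus genes were nearly uniform, with 24 of 25 higher in SIEC and a median of 4.22. Cdhr2, a protocadherin that links microvillus tips, read 2.21 to 3.17 (median 2.61) in mTEC and 7.56 and 8.37 in SIEC. The membrane-bending gene Baiap2l2 differed by 5.82, the actin regulator gene Eps8l3 by 5.76 and the scaffold genes Pdzd3 and Pdzk1 by 5.76 and 5.30. Sugar, amino acid and peptide transporters gave 18 of 20 higher in SIEC and 0 higher in mTEC, with a median of 4.67. Slc5a1, the sodium-glucose cotransporter SGLT1, read −3.79 to −3.11 (median −3.40) in mTEC and 2.43 and 3.12 in SIEC. Slc2a2, the glucose transporter GLUT2, read −4.17 to −3.23 (median −3.90) and 1.90 and 3.36. Slc3a1, the partner subunit of Slc7a9, read −4.11 to −2.80 (median −3.48) in mTEC and 2.94 and 3.75 in SIEC. These transporters sat low in mTEC, yet on all 6 arrays they were flagged above background.

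Lipid absorption and chylomicron genes, which package dietary fat, were higher in SIEC for 25 of 28 (median 3.93). Npc1l1, the cholesterol uptake protein, read −3.30 to −2.81 (median −2.94) in mTEC and 4.64 and 5.29 in SIEC. The fatty acid-binding protein genes Fabp2 and Fabp1 differed by 6.93 and 6.66, Apob by 6.16, Apoa1 by 6.47 and the microsomal transfer protein gene Mttp by 6.14. In this list the SIEC array labelled Cdx1-/- lay above the other by a median of 0.72, for example at Apob (5.38 and 6.98). Scarb1, the receptor for high-density lipoprotein, was the lone member higher in mTEC (at least 5.17-fold). Iron, calcium and vitamin genes were more mixed, with 17 higher in SIEC and 7 in mTEC. The ferroxidase gene Heph differed by 5.81 and the vitamin B12 receptor gene Cubn by 5.05 towards SIEC. Hamp, the liver hormone hepcidin that restrains iron export, was at least 96.7-fold higher in mTEC, and the duodenal iron reductase gene Cybrd1 read 0.04 to 0.45 (median 0.30) in mTEC and −3.26 and −3.55 in SIEC.

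Secretory lineages of the gut differed among themselves. Goblet cell genes were higher in SIEC for 18 of 20 (median 4.23), with the mucin gene Muc2 at −0.39 to 0.01 (median −0.26) in mTEC and 6.93 and 6.65 in SIEC. The disulfide isomerase gene Agr2 read 0.68 to 1.33 (median 0.87) in mTEC and 8.57 and 8.51 in SIEC. Atoh1, the factor that commits crypt cells to secretory fates, was above background on no mTEC array and at least 149-fold higher in SIEC. Paneth cell and antimicrobial genes gave 20 of 22 (median 5.17). The lectin gene Reg3b read 1.88 to 2.69 (median 2.40) in mTEC and 9.24 and 9.58 in SIEC, and the lysozyme gene Lyz1 differed by 3.56. Nos2, the inducible nitric oxide synthase, was higher in mTEC by 2.09-fold, though not within slide 2. Enteroendocrine genes were divided, with 18 of 28 higher in SIEC, 8 higher in mTEC and a median difference of 0.90 that ranged from 0.06 to 1.38 over the scalings. The shares passing were 64.3% towards SIEC and 28.6% towards mTEC, against 49.3% and 35.4% of all genes. With scaling to the probes above background on every array, 12 passed towards SIEC. The dopa decarboxylase gene Ddc and the chromogranin gene Chgb were higher in SIEC by 4.24 and 4.15. Towards mTEC, the neuropeptide gene Gal read 4.04 to 4.77 (median 4.30) against −2.30 and −2.17. The endocrine factor gene Insm1 read 5.23 to 5.44 (median 5.36) in mTEC and 0.73 and 0.61 in SIEC. Tph1, the tryptophan hydroxylase of serotonin-making cells, read 2.99 to 3.79 (median 3.42) in mTEC and 0.93 and 1.13 in SIEC.

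Crypt and Wnt target genes were higher in SIEC for 16 of 23, with a median of 1.39 that ranged from 0.55 to 1.87 over the scalings. The stem cell receptor gene Lgr5 read −5.88 to −3.72 (median −4.39) in mTEC and 1.55 and 0.66 in SIEC. The Wnt-responsive factor gene Sp5 read −4.42 to −3.75 (median −4.26) in mTEC and 1.44 and 1.54 in SIEC. Prom1, for prominin, differed by 4.32, and Smoc2 by 4.09. The T cell factor gene Tcf7 was higher in mTEC (0.66 to 1.10, median 0.80, against −1.61 and −2.07), as was Sox4 (difference −0.75, lost within slide 2 and when scaled to the median). Transcription factors of the gut gave 24 of 30 higher in SIEC, 3 in mTEC and 3 not passing (median 3.11). All 30 were detected in mTEC. Hnf4a read −0.60 to 0.71 (median 0.06) there and 7.29 and 7.32 in SIEC. The retinoid-responsive homeobox gene Isx read −2.02 to −1.39 (median −1.62) in mTEC and 5.77 and 5.91 in SIEC. Gata6 read −3.46 to −2.94 (median −3.03) in mTEC and 3.80 and 3.56 in SIEC. The bile acid receptor gene Nr1h4 differed by 5.70 and the xenobiotic receptor gene Nr1i2 by 6.80. Klf4 was higher in mTEC (difference −0.76, lost within slide 2 and when scaled to the median).

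Bile acid, guanylin and chloride transport genes followed the absorptive genes. Of 16 bile acid and segment genes, 14 were higher in SIEC. Slc10a2, the ileal bile acid importer, read −4.93 to −3.83 (median −4.19) in mTEC and 1.48 and 2.78 in SIEC. For the guanylin system, which sets fluid secretion through cyclic GMP, 18 of 20 were higher in SIEC (median 4.26). The hormone genes Guca2a and Guca2b read 8.71 and 8.64 and 7.76 and 8.52 in SIEC, against medians of 0.49 and 1.45 in mTEC. The chloride-bicarbonate exchanger gene Slc26a3 differed by 7.06 and the potassium channel subunit gene Kcne3 by 6.80. The exceptions were the bestrophin gene Best2, a channel of colonic goblet cells (1.36 to 1.87, median 1.60, in mTEC, −2.56 and −4.61 in SIEC), and the neuropeptide gene Vip (at least 5.59-fold higher in mTEC).

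**Figure D3:**
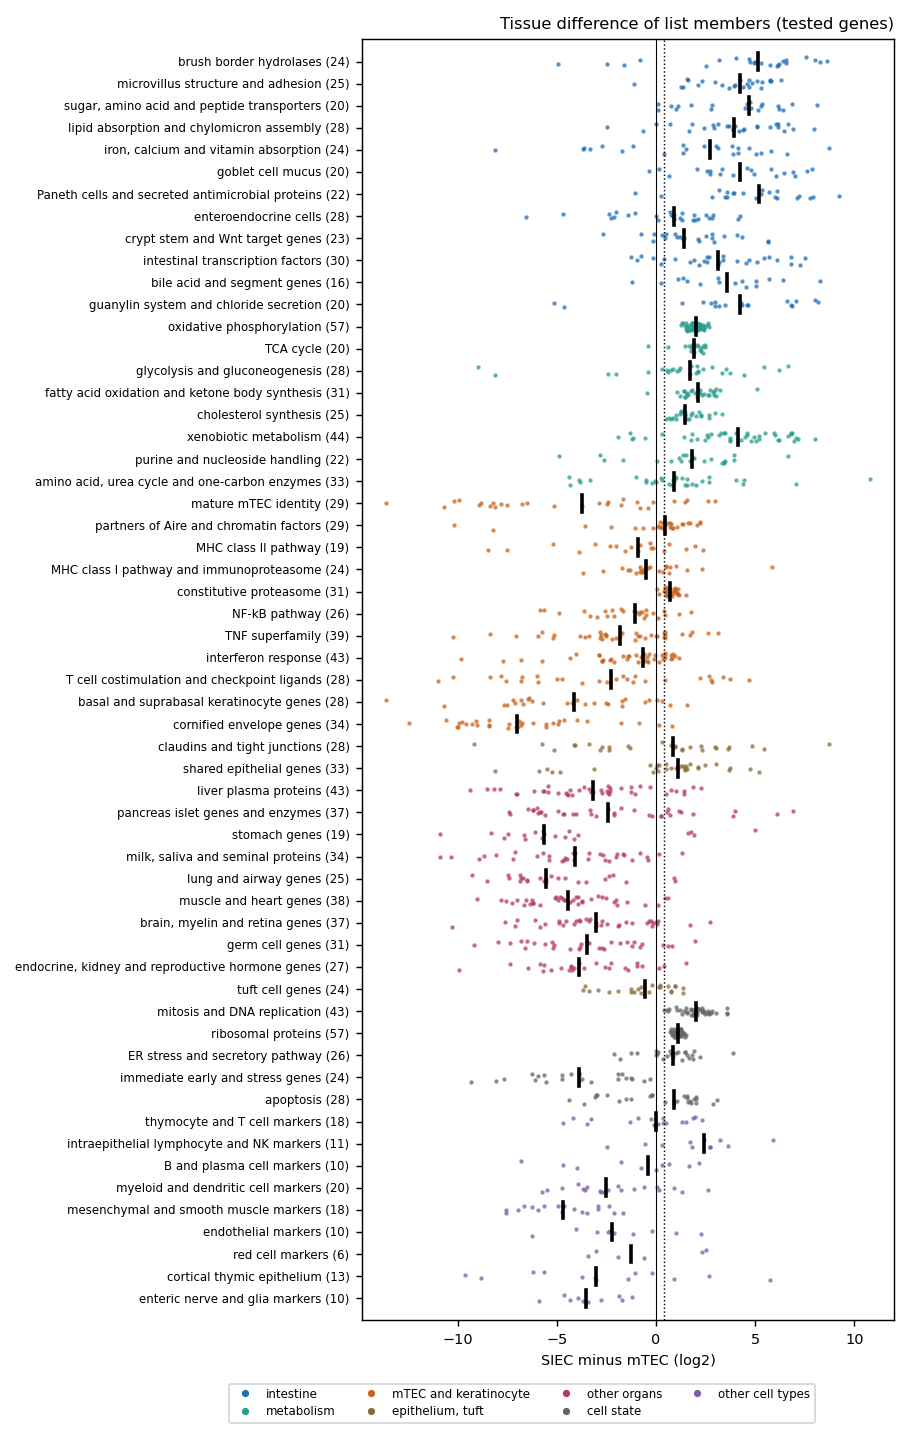
Difference between the tissues (SIEC minus mTEC, log2) for each tested member of 57 gene lists, with the number tested in brackets. Each dot is a gene, the black bar is the list's median, the solid line is 0 and the dotted line is the median of all tested genes (0.39). Lists of intestine and metabolism have medians from 0.90 to 5.17, and all lists of other organs have medians from −5.64 to −2.40.

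Most genes of energy metabolism were higher in SIEC, with differences of 1.26 to 2.67 in the respiratory chain. Every one of 57 respiratory chain genes passed in that direction, with a median of 2.01 (1.02 to 2.49 over the scalings) and none as much as 8-fold. The ATP synthase subunit gene Atp5g1 read 5.48 to 5.70 (median 5.55) in mTEC and 8.21 and 8.13 in SIEC. The cytochrome gene Cyc1 read 5.00 to 5.24 (median 5.12) in mTEC and 7.75 and 7.68 in SIEC. The succinate dehydrogenase gene Sdhb read 5.14 to 5.45 (median 5.24) in mTEC and 7.66 and 7.76 in SIEC. Of 20 citric acid cycle genes 18 were higher in SIEC (median 1.92), led by the malate dehydrogenase gene Mdh2 (difference 2.46). Fatty acid oxidation gave 29 of 31 (median 2.12), 4 of them at least 8-fold, led by the thiolase gene Acaa2 (difference 5.09). Cholesterol synthesis gave 25 of 25 (median 1.47).

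Sugar metabolism split by isoform. Of 28 genes 23 were higher in SIEC, with ketohexokinase, Khk, which starts fructose use, at 0.36 to 0.93 (median 0.60) in mTEC and 6.97 and 7.60 in SIEC. The bisphosphatase gene Fbp2 differed by 6.22 and the liver pyruvate kinase gene Pklr by 4.42. The 5 genes higher in mTEC included isoforms of other tissues. Ldhb, the heart-type lactate dehydrogenase, read 5.74 to 6.07 (median 5.92) in mTEC and −2.71 and −3.40 in SIEC, where 1 array had it above background. The neuronal enolase gene Eno2 was at least 178-fold higher in mTEC and the muscle enolase gene Eno3 differed by −2.44.

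Detoxification genes had the largest median of the metabolic lists, with 39 of 44 higher in SIEC, 30 of them at least 8-fold, and a median of 4.16. Sult1b1, a sulfotransferase, read −2.56 to −2.24 (median −2.43) in mTEC and 5.42 and 5.79 in SIEC. The glutathione transferase gene Mgst2 read −0.06 to 0.36 (median 0.20) in mTEC and 7.26 and 7.40 in SIEC. The carboxylesterase gene Ces2e read −0.56 to 0.59 (median 0.07) in mTEC and 6.89 and 7.30 in SIEC. Fmo4, a flavin monooxygenase, was above background on no mTEC array and at least 35.4-fold higher in SIEC. Cyp2c65 differed by 6.86, with the caution that Cyp2c probes can share sequence. The liver esterase gene Ces1d (difference −1.94), Fmo1 (difference −1.33) and Gstm1 (difference −1.19) went towards mTEC, the latter pair not within slide 2. Amino acid and urea cycle genes divided. Of 33 tested, 20 were higher in SIEC (60.6%, against 49.3% of all genes), 8 in mTEC (24.2%, against 35.4%) and 5 did not pass. Cps1, the first urea cycle enzyme, read −3.33 to −2.72 (median −3.08) in mTEC and 4.42 and 3.58 in SIEC. Ornithine aminotransferase, Oat, read 1.37 to 1.72 (median 1.47) in mTEC and 6.37 and 5.38 in SIEC. The liver one-carbon enzymes were the reverse, with Gnmt at 1.31 to 1.75 (median 1.47) and −2.98 and −2.80, Mat1a at least 7.96-fold higher in mTEC and Bhmt different by −3.87. Purine and nucleoside genes gave 14 of 22 higher in SIEC (63.6%, against 49.3% of all genes). Among these were cytidine deaminase, Cda (difference 6.64), and xanthine dehydrogenase, Xdh (difference 3.42). The muscle deaminase gene Ampd1 was at least 11.4-fold higher in mTEC, and urate oxidase, Uox, differed by −2.84.

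Cell division genes were higher in SIEC, 42 of 43 with 0 in the other direction and a median of 2.00 (1.16 to 2.48 over the scalings). Birc5, for survivin, read 2.72 to 3.21 (median 2.98) in mTEC and 6.20 and 5.77 in SIEC. Thymidine kinase, Tk1, read −0.09 to 0.35 (median 0.15) in mTEC and 3.92 and 3.49 in SIEC. The repressor gene E2f8 read −1.46 to −0.91 (median −1.21) in mTEC and 2.69 and 2.08 in SIEC. Ribosomal protein genes all passed towards SIEC (57 of 57, median 1.10), but their median turned to −0.07 after quantile normalization, so no direction is given for them. The constitutive proteasome (28 of 31 towards SIEC, 5 within slide 2, median 0.70) turned likewise, to −0.14. Secretory pathway genes gave 17 of 26 higher in SIEC (10 within slide 2), with the goblet cell stress sensor gene Ern2 higher by 3.89 and the factor gene Xbp1 by 2.23. Of these 26 genes, 65.4% passed towards SIEC and 15.4% towards mTEC, against 49.3% and 35.4% of all genes. The stress-response genes Trib3 (difference −2.11), Dnajb9 (difference −1.84) and Ddit3 (difference −1.27) were higher in mTEC. Apoptosis genes went both ways (16 and 10 of 28, or 57.1% and 35.7%, against 49.3% and 35.4% of all genes). The pro-death genes Bik and Bbc3 were higher in mTEC by 20.7-fold and 8.30-fold and the inhibitor gene Cflar by 12.3-fold.

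Mature mTEC genes made up the opposite pole. Of 29 identity genes 23 were higher in mTEC and 10 were above background on no SIEC array, with a median of −3.74. Hdc, the histidine decarboxylase, read 6.24 to 7.27 (median 6.71) in mTEC and −3.38 and −3.09 in SIEC (at least 983-fold). The chemokine gene Ccl19, which draws T cells into the medulla, read 5.20 to 5.59 (median 5.40) in mTEC and −3.71 and −3.34 in SIEC. The 5 identity genes higher in SIEC included Cldn3 (difference 2.98), the lymphotoxin receptor gene Ltbr (difference 2.60) and the integrin gene Itgb4 (difference 1.56), all shared with other epithelia. Factors reported to work with Aire are general chromatin and transcription proteins, and 18 of 29 were higher in SIEC (9 within slide 2). Their median of 0.46 lay near that of all genes and turned to −0.38 when scaled to the probes above background on every array. Their share passing towards SIEC was 62.1%, against 49.3% of all genes. The deacetylase gene Sirt1 stood apart among them, higher in mTEC (4.27 to 5.23, median 4.80, against 1.26 and 1.15), and Deaf1 differed by 2.23.

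Antigen presentation genes were divided between the tissues. MHC class II pathway genes gave 13 of 19 higher in mTEC (68.4%, against 35.4% of all genes) and 4 in SIEC (median −0.91). MHC class II was part of the mTEC gate, so the direction of class II genes is no finding between the groups. The leading genes of the pathway edit the peptides that class II molecules carry. H2-Oa read 6.25 to 6.58 (median 6.46) in mTEC and −2.06 and −1.99 in SIEC. H2-Ob read 3.13 to 3.72 (median 3.36) in mTEC and −2.08 and −1.52 in SIEC, and H2-DMb2 was at least 106-fold higher in mTEC. The protease gene Ctsl, which trims the invariant chain in thymic epithelium, read 4.38 to 5.16 (median 4.78) in mTEC and 1.46 and 1.88 in SIEC, whereas Ctsb was higher in SIEC by 1.98. In the class I pathway 13 of 24 were higher in mTEC (5 within slide 2) and 8 in SIEC. These are 54.2% and 33.3%, against 35.4% and 49.3% of all genes. The median of the class I list, −0.49, ranged from −1.33 to −0.008 over the scalings. The lipid-presenting Cd1d1 (difference −3.67) and the class I activator gene Nlrc5 (difference −2.66) were higher in mTEC. H2-T3, which encodes the intestinal thymus leukaemia antigen, read −4.57 to −3.46 (median −3.84) in mTEC and 1.70 and 2.16 in SIEC, and the trimming peptidase gene Erap1 was higher in SIEC by 2.33.

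Most genes of NF-kB signalling and of the TNF superfamily were higher in mTEC, among them ligands, receptors and inhibitors. For NF-kB genes 20 of 26 were higher in mTEC (median −1.05), including the inhibitor gene Nfkbie (4.08 to 4.26, median 4.16, against −1.67 and −1.33), Nfkb2 of the alternative branch (5.03 to 5.67, median 5.28, against 1.59 and 1.68), and Nfkbia (8.21 to 8.73, median 8.66, against 5.08 and 5.40). Bcl3 and the kinase gene Chuk were higher in SIEC, by 1.76 and 1.15, the latter not within slide 2. TNF superfamily genes gave 26 of 39 higher in mTEC and 12 above background on no SIEC array. Cd70 was at least 335-fold higher, the receptor gene Cd40 at least 287-fold, the lymphotoxin gene Lta at least 35.3-fold, and osteoprotegerin, Tnfrsf11b, a decoy for RANK ligand, read 3.08 to 3.88 (median 3.64) against −3.33 and −3.71. Tnfsf10, the death ligand TRAIL, was higher in SIEC (−1.27 to −0.67, median −0.86, against 2.19 and 2.21).

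Costimulatory ligands and interferon-response genes were mostly higher in mTEC too. Of 28 costimulation and checkpoint genes, 20 were higher in mTEC, and 13 were detected in mTEC and above background on no SIEC array. Cd86 was at least 50.6-fold, Icam1 at least 80.3-fold and Cd274, for PD-L1, at least 95.2-fold higher in mTEC. The butyrophilin-like genes that sustain intestinal gamma-delta T cells went the other way, with Btnl1 at 2.80 to 3.98 (median 3.31) in mTEC and 6.43 and 7.09 in SIEC and Btnl6 and Btnl4 higher in SIEC by 4.68 and 3.75, copies of a family whose probes can cross-react. Among 43 interferon-response genes 28 were higher in mTEC (15 within slide 2), 9 in SIEC and 6 did not pass, and the median was −0.67. Over the scalings this median ranged from −1.51 to −0.20. The 2 SIEC arrays lay apart here, with median levels of −0.02 and 1.34, against 1.87 to 2.04 on the mTEC arrays. Their median gap over the list was 0.65, against 0.33 over all genes. Cxcl10 read 6.70 to 7.02 (median 6.96) in mTEC and −3.60 and −2.20 in SIEC. Cxcl9 read 3.88 to 4.10 (median 3.99) in mTEC and −4.40 and −3.04 in SIEC. The protease gene Usp18 read 4.57 to 4.96 (median 4.70) in mTEC and −0.02 and 1.41 in SIEC. The GTPase gene Irgm2 (difference 1.17) and the antibody receptor gene Trim21 (difference 0.94) were higher in SIEC. Neither passed within slide 2, and Trim21 differed by 0.10 (adjusted p = 0.696) when scaled to the probes above background on every array.

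Skin genes stood furthest towards mTEC. Cornified envelope genes, which build the outer layer of skin, were higher in mTEC for 32 of 34 tested, 30 of them by at least 8-fold (against 14.1% of all genes), and 22 were above background on no SIEC array. Their median of −6.99 was the lowest of the 58 lists. The adhesion protein gene Lypd3 (at least 392-fold), Crct1 (at least 261-fold) and the calmodulin-like gene Calml3 (at least 287-fold) led them after Alox12e, and dermokine, Dmkn, read 5.80 to 6.77 (median 6.24) in mTEC and −2.85 and −4.25 in SIEC. Keratinocyte genes gave 23 of 28 (median −4.13). Krt14, the partner of keratin 5 in basal cells, read 3.90 to 4.38 (median 4.18) and −2.73 and −4.02. Krt16 read 5.73 to 6.33 (median 5.96) in mTEC and −1.58 and −1.79 in SIEC, and the desmosome gene Dsg1a was at least 44.9-fold higher.

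Junction genes went both ways, in shares near those of all genes. Of 28 claudin and tight junction genes, 16 were higher in SIEC (57.1%, against 49.3%) and 12 in mTEC (42.9%, against 35.4%). Cldn15 (−2.66 to −2.12, median −2.43, in mTEC, 6.20 and 6.40 in SIEC) and Cldn2 (−1.91 to −0.97, median −1.53, and 4.09 and 3.72), which form cation pores in gut, marked SIEC. Cldn4 (3.42 to 4.30, median 4.05, and −1.92 and −0.48), a marker of mTEC, went the other way, as did Cldn13 (at least 150-fold) and the junctional adhesion gene Jam3 (at least 16.2-fold). Genes shared by most epithelia gave 21 of 33 higher in SIEC (63.6%, against 49.3% of all genes). Krt19 read 3.65 to 3.92 (median 3.73) in mTEC and 9.04 and 8.86 in SIEC. Towards mTEC were P-cadherin, Cdh3 (at least 15.0-fold), and the factor gene Grhl1 (2.29 to 3.05, median 2.67, against −2.69 and −2.48).

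Genes whose main site is another organ were detected in mTEC at a share near that of all genes and in SIEC at a lower one. Of 324 such genes on the array 290 were detected in mTEC (89.5%, against 83.0% of all ordinary symbols) and 80 in SIEC (24.7%, against 60.4%), and 191 were detected in mTEC and above background on no SIEC array. With the highest array floor applied throughout, 83.3% and 24.4% were detected, against 77.2% and 60.2% of all ordinary symbols. In the tissue comparison 239 were higher in mTEC, 30 in SIEC and 21 did not pass. Each organ group had more members detected in mTEC than in SIEC. Detected in mTEC and SIEC were 43 and 19 of 45 liver plasma protein genes, 37 and 18 of 38 pancreatic genes, and 19 and 4 of 22 stomach genes. The counts were 25 and 7 of 26 for lung and airway, 34 and 6 of 36 for milk, saliva and seminal proteins, and 38 and 6 of 39 for muscle. For brain and retina they were 37 and 11 of 43, for hormones of endocrine glands and kidney 27 and 6 of 32, and for germ cells 31 and 3 of 44. Germ cell genes had the smallest detected share in mTEC of these groups, below that of all symbols.

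Among liver genes the kininogen gene Kng1 read 3.56 to 3.86 (median 3.60) in mTEC and −5.88 and −5.54 in SIEC (at least 173-fold), and the fibrinogen chain gene Fgg was at least 83.6-fold and haptoglobin, Hp, at least 139-fold higher in mTEC. Serpina1a (difference 2.25) and complement factor B, Cfb (difference 1.84), were higher in SIEC. Of the pancreatic genes, the islet peptide gene Ppy was at least 112-fold and the trypsinogen gene Prss1 at least 31.1-fold higher in mTEC, while the lipase gene Pnliprp2 (−3.65 to −3.19, median −3.46, in mTEC, 3.63 and 1.73 in SIEC) and the trypsin inhibitor gene Spink1 (4.52 to 4.97, median 4.75, and 8.46 and 9.03) were higher in SIEC. In the stomach group, Atp4b of the acid pump (at least 56.0-fold), the gastric mucin gene Muc5ac (at least 65.7-fold) and Anxa10 (at least 71.9-fold) were higher in mTEC. The hormone gene Ghrl (1.54 to 1.90, median 1.66, in mTEC, 3.62 and 3.54 in SIEC), the secretory factor gene Bhlha15 (−3.15 to −2.44, median −2.59, and 2.42 and 2.24) and Gkn3 (difference 1.76) were higher in SIEC. Scgb1a1, the club cell secretoglobin, read 3.93 to 4.45 (median 4.20) in mTEC and −5.22 and −4.96 in SIEC (at least 254-fold), and the ciliary master factor gene Foxj1 was at least 32.9-fold higher.

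Secretory, contractile and neural proteins gave the same picture. The milk casein gene Csn2 read 4.31 to 4.97 (median 4.77) in mTEC and −5.81 and −5.39 in SIEC (at least 368-fold). The salivary Dcpp3 was at least 187-fold higher, with near-identical copies next to it, whereas tissue kallikrein, Klk1, was higher in SIEC by 1.31. Of muscle genes the myosin heavy chain genes Myh8 and Myh4 were at least 138-fold and 55.8-fold higher in mTEC, cardiac actin, Actc1, at least 38.3-fold, and the calcium channel gene Cacna1s read 4.45 to 4.77 (median 4.66) against −3.52 and −2.33. Synaptotagmin, Syt1, read 4.76 to 5.04 (median 4.92) in mTEC and −5.74 and −4.98 in SIEC (at least 418-fold), the oxytocin gene Oxt was at least 137-fold and the rod photoreceptor factor gene Nrl at least 61.6-fold higher. The synaptic gene Snap25 was higher in SIEC (1.29 to 3.01, median 2.15, in mTEC, 4.48 and 5.40 in SIEC). In the endocrine group, calcitonin, Calca, was at least 243-fold, the glycoprotein hormone subunit gene Cga at least 59.7-fold, parathyroid hormone, Pth, at least 28.2-fold and thyroglobulin, Tg, at least 23.9-fold higher in mTEC. Among germ cell genes the meiosis inducer gene Stra8 (at least 128-fold), the sperm transition protein gene Tnp2 (at least 39.4-fold) and the egg coat gene Zp3 (at least 40.8-fold) were higher in mTEC.

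Gene families were also taken whole, by symbol, and their detected shares are read against those of all ordinary symbols, 83.0% in mTEC and 60.4% in SIEC. Beta defensins, the epithelial antimicrobial peptides of skin and epididymis, were detected for 28 of 43 in mTEC and for 0 in SIEC, with Defb6 at 4.59 to 5.14 (median 4.74) in mTEC and at least 386-fold higher. Alpha defensins, the peptides of Paneth cells, were detected for 25 of 27 in mTEC and 23 in SIEC, and 20 of 25 were higher in SIEC (median 6.49). Keratins were detected for 51 and 20 of 54, and the hair keratin Krt71 was at least 263-fold and the palm and sole keratin Krt9 at least 337-fold higher in mTEC. Late cornified envelope and Sprr genes were detected for 32 and 3 of 34, kallikreins for 28 and 10 of 28, lipocalins and major urinary proteins for 24 and 5 of 24 and Bpif proteins for 13 and 3 of 13. In the kallikrein and urinary protein clusters neighbouring genes are near-identical, so single members are uncertain.

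**Figure D4:**
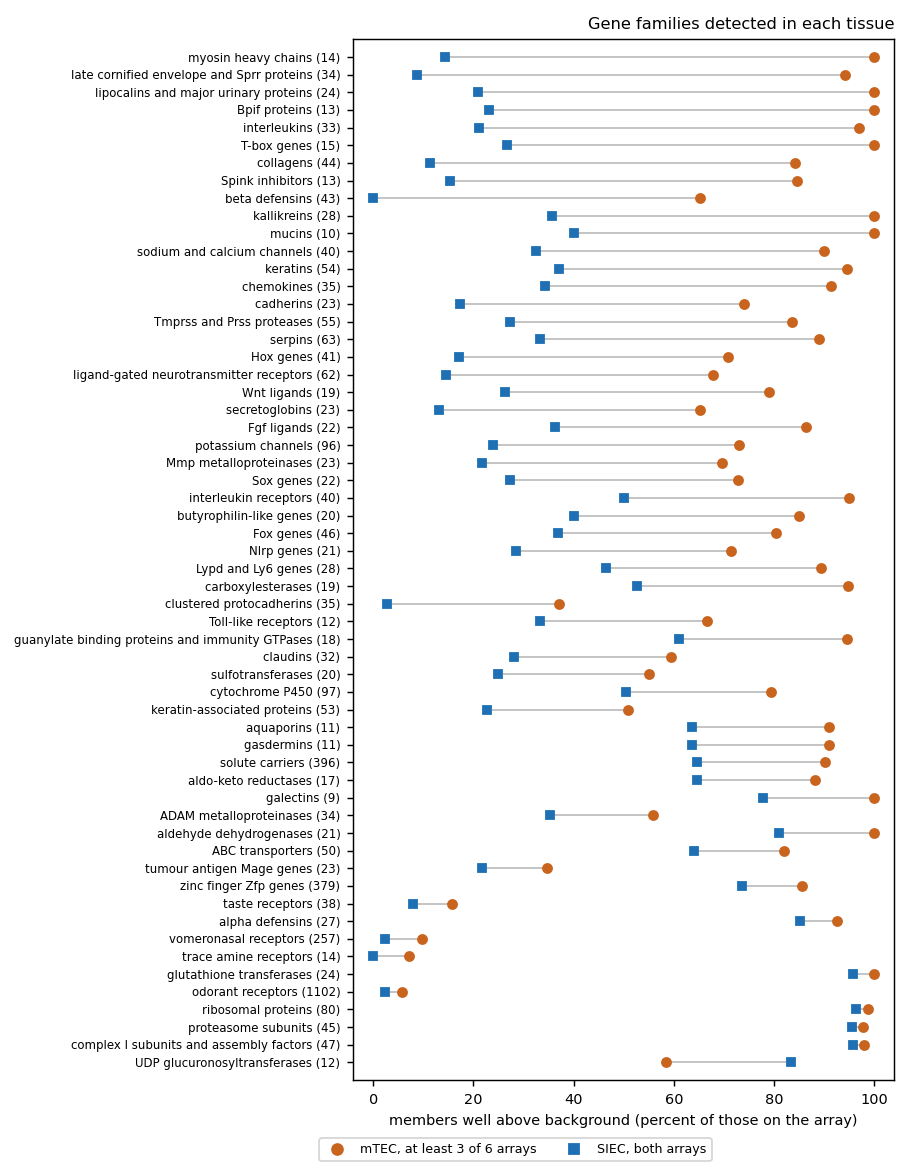
Share of the members of each gene family on the array that was well above background in mTEC (orange circles, at least 3 of 6 arrays) and in SIEC (blue squares, both arrays), with the number on the array in brackets and families ordered by the gap between the tissues. Late cornified envelope and Sprr genes stand at 94.1% and 8.82%, and the UDP glucuronosyltransferases are the family furthest the other way, at 58.3% and 83.3%.

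Interleukin genes were detected for 32 of 33 in mTEC (97.0%) and 7 in SIEC (21.2%), against 83.0% and 60.4% of all symbols, and 28 of 32 were higher in mTEC. The helper T cell cytokine gene Il13 read 3.44 to 4.22 (median 3.87) in mTEC and −6.13 and −5.61 in SIEC (at least 202-fold), and Il5 was at least 32.2-fold higher. Chemokine genes were detected for 32 and 12 of 35, with Cxcl1 at least 203-fold and Ccl2 at least 123-fold higher in mTEC. Skint genes, butyrophilin-like proteins of thymic epithelium and skin that select gamma-delta T cells, led their family, with Skint4 at least 279-fold higher. Collagens were detected for 37 and 5 of 44, with the cartilage collagen gene Col2a1 at least 45.8-fold higher, and myosin heavy chains for 14 and 2 of 14. Potassium channels were detected for 70 and 23 of 96, and ligand-gated neurotransmitter receptors for 42 and 9 of 62, where the glutamate receptor gene Grin2c was at least 228-fold higher in mTEC. Wnt ligand genes were detected for 15 and 5 of 19, none passing towards SIEC, with Wnt10a at least 246-fold higher in mTEC.

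Receptors of smell and taste were mostly not detected in either tissue. Odorant receptor genes were detected for 63 of 1102 in mTEC (5.72%) and 26 in SIEC (2.36%), vomeronasal receptors for 25 and 6 of 257, and taste receptors for 6 and 3 of 38. The odorant receptor genes that passed were divided between directions (29 towards SIEC, 30 towards mTEC), and Olfr487 read −0.63 and −0.71 in SIEC and was above background on no mTEC array. Hox genes, whose combinations mark position along the body, were detected for 29 of 41 in mTEC and 7 in SIEC. The posterior gene Hoxb13 was at least 35.5-fold and Hoxc11 at least 36.4-fold higher in mTEC, although the family's median difference of −1.89 turned to 0.09 under normexp. Families of metabolism were shared out. Of 79 cytochrome P450 genes tested, 39 were higher in SIEC and 35 in mTEC, with a median that changed sign over the scalings (−0.40 to 0.91). The nasal gene Cyp2g1 was at least 177-fold and the airway gene Cyp2f2 at least 174-fold higher in mTEC. UDP glucuronosyltransferases, in contrast, passed towards SIEC for all 10 tested (median 3.91). Galectin genes divided, with Lgals4 (2.53 to 4.28, median 3.28, in mTEC, 9.81 and 9.92 in SIEC) and Lgals2 (difference 5.82) towards SIEC and the skin galectin gene Lgals7 at least 29.3-fold higher in mTEC. All 10 mucin genes were detected in mTEC and 4 in SIEC. Of the 10, 6 were higher in mTEC, 5 of them by at least 8-fold, and the family's median was −3.10. The 4 higher in SIEC included Muc2, Muc13 (difference 6.05) and Muc3 (difference 5.79).

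Tuft cell genes were detected in both tissues, 24 of 24 in mTEC and 19 in SIEC, and 12 of 24 were higher in mTEC (7 within slide 2), 2 in SIEC and 10 did not pass. Tuft cells are chemosensory cells found in gut and thymus alike. The taste transducin gene Gnat3 (at least 3.38-fold) and the cytokine gene Il25 (at least 6.39-fold) were higher in mTEC. The 2 SIEC arrays stood apart here, with the array labelled Cdx1-/- lower by a median of 1.20, as at Gng13 (1.29 and −0.41).

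Immediate early and stress genes were higher in mTEC, 23 of 24 with a median of −3.90. These genes respond within minutes to stimulation, and to enzyme digestion and sorting. The heat shock gene Hspb1 read 7.13 to 7.69 (median 7.26) in mTEC and −3.11 and −0.88 in SIEC. Fosb, for a subunit of the AP-1 factor, read 5.03 to 5.84 (median 5.63) in mTEC and −3.87 and −1.20 in SIEC. Hspa1a, for an inducible Hsp70 chaperone, read 5.69 to 6.13 (median 5.93) in mTEC and −0.95 and −2.61 in SIEC. The median gap between the 2 SIEC arrays over the list was 0.38, against 0.33 over all genes. Egr1, a zinc finger factor gene switched on by growth signals, read 4.97 to 5.52 (median 5.18) in mTEC and −0.88 and −1.26 in SIEC. Atf3 read 5.29 to 5.66 (median 5.45) in mTEC and −1.27 and 0.04 in SIEC. No source used here says how the intestine was dissociated, and the part of cell preparation in these values was not tested.

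Markers of cells that the gates should leave out were measurable in both tissues. Summed over a list on the linear scale and put back on log2, thymocyte and T cell markers lay at 5.11 to 5.84 in mTEC and 4.50 and 5.74 in SIEC. Such a sum is weighted towards its brightest members. Here these were led by Thy1 in mTEC, which the mesenchymal list also holds, and by Cd3e in SIEC. In SIEC 5 of the 19 on the array were above background on neither array, the recombination and pre-T genes Rag1, Rag2 and Ptcra among them. In mTEC only Rag2 was absent, and Dntt, the terminal transferase of immature thymocytes, read 0.99 to 2.01 (median 1.38) in mTEC and −3.56 and −2.87 in SIEC. Intraepithelial lymphocyte and natural killer markers summed to 6.27 to 7.06 in mTEC and to 6.63 and 8.72 in SIEC, and 8 of 11 were higher in SIEC. The granzyme gene Gzma read 0.69 to 1.05 (median 1.00) in mTEC and 5.70 and 7.96 in SIEC. The integrin gene Itgae, which binds E-cadherin, read −4.91 to −3.80 (median −4.28) in mTEC and −2.26 and −0.96 in SIEC. The leukocyte gene Ptprc, for the CD45 used in both gates, read −2.06 to −1.41 (median −1.81) and −0.82 and −0.09, and its call was lost when scaled to the probes above background on every array (difference 0.47). The part of these cells in the T cell and class I genes was not tested.

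Stromal and myeloid markers were higher in mTEC. All 18 mesenchymal and smooth muscle markers tested passed in that direction (median −4.69), their sum lying at 7.15 to 7.33 in mTEC and 2.09 and 2.97 in SIEC. Sparc read 5.50 to 5.69 (median 5.57) and −1.59 and −0.54, and the collagen gene Col1a1 was at least 42.9-fold higher, but Pdgfra, the receptor that defines thymic fibroblasts, was above background on no mTEC array. Myeloid and dendritic markers gave 15 of 20 higher in mTEC, with the macrophage genes Lyz2 (1.79 to 2.86, median 2.34, against −3.12 and −3.77) and Adgre1 (at least 16.5-fold). Their sum nevertheless lay at 6.61 to 7.16 in mTEC and 7.04 and 7.80 in SIEC, with Siglech the brightest member in both tissues. Enteric nerve and glia markers passed towards mTEC for all 10, and 9 of them were above background on neither SIEC array. Endothelial markers summed to 3.24 to 3.61 in mTEC and 2.37 and 2.41 in SIEC, and B and plasma cell markers to 3.70 to 4.14 and 2.81 and 3.22. Red cell markers were carried by globin, with Hba-a1 at 2.96 to 3.21 (median 3.06) in mTEC and 5.04 and 5.74 in SIEC. Of 13 cortical thymic epithelium markers, all detected in mTEC, 8 were higher in mTEC (61.5%, against 35.4% of all genes) and 3 in SIEC (median −3.01). Tbata and the thymus protease gene Prss16 were higher in mTEC (−9.62 and −5.67). The peptidase gene Enpep, which enterocytes also make, was higher in SIEC (difference 5.76). The median level of this list was 1.80 on Cdx1+/+ mTEC replicate 3 and 0.19 to 0.59 on the other mTEC arrays. Many stromal, neural and myeloid genes are also ectopic transcripts of mTEC, and the part of admixed cells in any of these values was not tested.

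Pools of 1 tissue differed by less than the tissues did. The median SD within an mTEC genotype was 0.15 over all genes and the median gap between the SIEC arrays 0.33. That gap exceeded 2 at 403 of 24139 tested genes (1.67%) and at 52 of 1476 listed genes (3.52%). Chosen for their gap after their values were seen, the ecto-nucleotidase gene Nt5e read −2.65 and 2.37, adenosine deaminase, Ada, 2.10 and 6.22, and the channel regulator gene Clca4a −0.36 and 4.41. For Nt5e the SIEC arrays lay on either side of all mTEC arrays (−2.14 to −1.57), and it did not pass the tissue test (adjusted p = 0.0971). Ada did not pass either (adjusted p = 0.0507), with 1 SIEC array within the mTEC range (1.98 to 2.40). By list, the array labelled Cdx1-/- lay above the other by a median of 1.53 for intraepithelial lymphocyte markers and 1.16 for T cell markers, and below it by a median of 0.53 for mitosis genes. The interaction of tissue and genotype passed for 3704 genes (15.3%), and for 50 of the 148 named genes that were above background on all arrays. It rests on 1 SIEC array per label, each assumed to vary like the mTEC arrays, and with the SIEC labels exchanged it passed for 2518 genes. On the intestine side genotype and pool cannot be told apart.

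**Figure D5:**
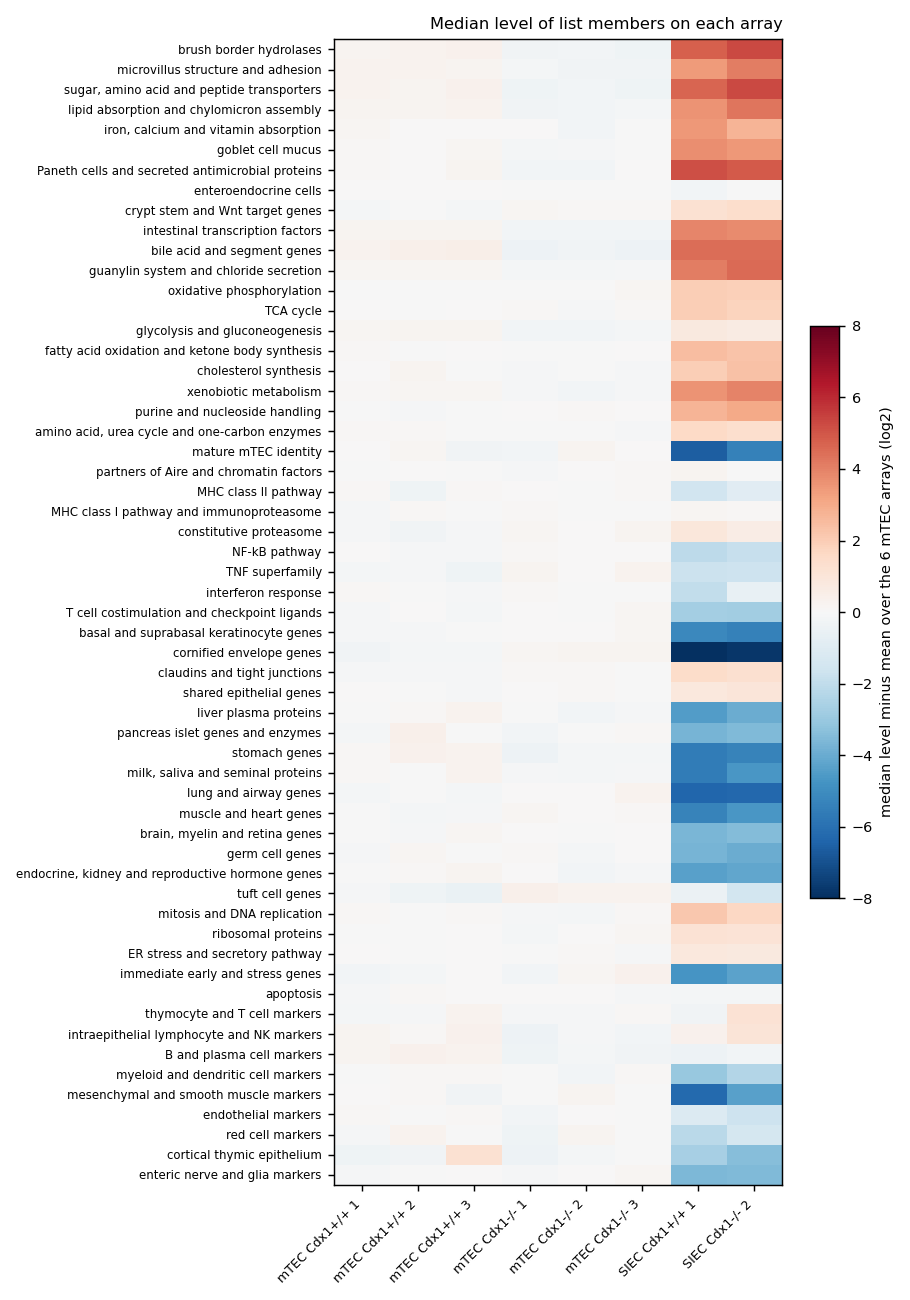
Median level of the tested members of each gene list (rows) on each array (columns), after subtracting the list's mean over the 6 mTEC arrays, in log2 units (red higher, blue lower). The 6 mTEC columns stay pale, and the 2 SIEC columns share their colours at most lists, with visible gaps between them for lymphocyte, lipid and tuft cell genes.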

How the data were processed

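Total RNA of 8 sorted cell pools, extracted and labelled by a commercial provider per the labels' protocols, was hybridised to 1-colour Agilent arrays. The deposited files hold the scanner's processed signal for each spot as a linear intensity, background-subtracted by Agilent Feature Extraction 10.7.3.1 per the file headers, with probe positions on mm9. The authors' deposited table of the same arrays holds each array's processed intensity divided by a constant, so that every column has a median of 1.00 (checked within 1.00%), and was used as an alternative. From the intensities, control spots and outlier probes were left out (12 probes), spots of a probe were averaged, and log2 values were taken of the deposited signals, minus the 75th percentile of each array. Probes were named through accessions and symbols of the RefSeq gene table (27571 of 55669 probes by accession and 3899 by symbol, with the name in the files kept for the rest). A gene was tested if a probe was well above background on both SIEC or at least 3 of 6 mTEC arrays, and its brightest such probe stood for it. In 451 of 6595 genes with several probes, the probes differed in direction.

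Tissue differences came from limma 3.58.1 (R 4.3.3) with tissue and genotype as terms over all 8 arrays (5 residual degrees of freedom), with p-values adjusted by the Benjamini-Hochberg method over 24139 genes and a threshold of 0.05. All adjusted p-values in the text are from this fit or the same fit under an alternative. The interaction of tissue and genotype was a separate term. On simulated data made from the real arrays' means, 53.2% of 62 genes changed 2-fold and 97.1% of 69 genes changed 8-fold were recovered. Of the genes called there, 6.8% were false. In the simulation few of the 24139 genes were changed, whereas 84.7% passed in the real data. These shares therefore do not carry over to the real comparison. The number of arrays limits the precision.

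The 58 gene lists and 59 families, and the comparison itself, were chosen with earlier results of these data known. Genes named are ordinary symbols: the 20 of largest difference per direction among those that passed with the tissues' arrays apart, the cell type markers, up to 6 per list of largest difference among members that passed and up to 3 that went against the list's direction, all members of lists of at most 8 genes, and up to 4 per family. Holders of the HNF4 letters are named in full, and Nt5e and Ada were named after their values were seen. A few genes that this rule names are not reported here. Same-numbered mTEC pools of the 2 genotypes deviated together (correlations of deviations 0.31, 0.15 and 0.16), so the replicate number of the labels was taken as a pairing and tried as a block. Design text of the series speaks of 3 replicates per group, while each SIEC label has 1 array here. Alternatives covered background correction, scaling, the filter on dim probes, the probe of a gene, slide, genotype, pairing and leaving out each array.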

Additional observations from a re-analysis of the deposited data

Results flagged for a closer look

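The tissue difference was larger or smaller under the Cdx1-/- than under the Cdx1+/+ label, by the limma interaction term, for 50 of 148 named genes that were above background on every array. That is 33.8%, against 15.3% of all genes tested. The 2 shares come from unlike sets, so their contrast is not read as a result. Most named genes were chosen for a large tissue difference, and these 148 also for being above background on every array. The 15.3% covers every tested gene. The values are the tissue difference (SIEC minus mTEC) in Cdx1-/- minus that in Cdx1+/+. Each label has 1 SIEC array, so on the intestine side the pool and the label cannot be told apart, and the Cdx1 level goes against these labels. With the labels of the 2 SIEC arrays exchanged, an alternative chosen after seeing the data, 2518 genes passed in place of 3704. Of the 50 named genes, 6 then passed with the same sign, 15 passed with the opposite sign and 29 did not pass. Those that kept their sign and call were Hnf4a (1.16), Sis (1.34), Fabp1 (0.73), Guca2a (1.25), Lgals2 (0.97) and Lgals4 (1.42). At Hnf4a, a nuclear receptor of intestinal epithelium, the intestine arrays read 7.29 (Cdx1+/+) and 7.32 (Cdx1-/-), whereas mTEC read 0.65, 0.61 and 0.71 in Cdx1+/+ and −0.54, −0.60 and −0.48 in Cdx1-/-. At Ada, adenosine deaminase, mTEC read 1.98 to 2.40 on all 6 arrays and the intestine arrays 2.10 and 6.22, and the value turned from 4.38 to −3.85.

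With the labels as given, genes of the intestinal lists made up 26 of the 50, all above 0. Such genes were 59 of the 148 named genes above background on every array. With the labels exchanged, 15 of these 26 lay above 0 and 11 below, and 20 did not pass. As labelled, brush border and microvillus genes had 1.57 for Vil1, 1.32 for Lct, 2.38 for Sis, 1.13 for Alpi, 2.16 for Treh, 0.77 for Mep1b, 1.56 for Cdhr2, 1.23 for Eps8l3 and 1.01 for Pdzk1. Lipid genes had 3.05 for Apob, 2.00 for Apoa1, 2.16 for Fabp1, 1.93 for Fabp2 and 1.43 for Mttp. Transporters had 1.97 for Slc2a2, 1.74 for Slc3a1, 1.92 for Slc7a9 and 1.48 for Heph. The others of these lists had 1.12 for Guca2a, 2.03 for Guca2b, 5.31 for Clca4a, 1.23 for Hnf4a, 2.59 for Cdx1, 1.85 for Muc3, 0.94 for Reg3b and 1.03 for Nos2.

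Metabolic genes went both ways. Sugar enzymes had 1.14 for Khk and 1.21 for Pklr, the carboxylesterases 1.22 for Ces2e and −1.33 for Ces1d, the purine genes 4.38 for Ada and 4.79 for Nt5e, and Acaa2 and Oat −0.91 and −1.05. Genes of the remaining lists and families were mixed too. Higher values were 1.61 for Btnl1, 1.74 for Lgals2, 1.66 for Lgals4, 2.06 for Gzma, 1.68 for Cldn4, 0.89 for Itgb4, 1.37 for Cacna1s, 1.04 for Sparc, 1.15 for Usp18, 1.57 for Trib3, 1.32 for Atf3 and 1.92 for Hspb1. Lower values were −2.10 for Pnliprp2, −1.998 for Gng13, −1.96 for Hspa1a and −0.88 for Bik. Ada, Nt5e and Clca4a were picked for their gap between the SIEC arrays. A further 46 of 113 named genes passed the same term with some array not above background, where the difference is not measured, and are not listed.

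In 8 of 261 named genes, 1 mTEC array stood apart from the other 5, and chance alone flags about 1 in 20 such groups. Cdx1+/+ replicate 3 read 1.87 at Col1a1 and 1.75 at Hoxb13, Cdx1+/+ replicate 2 read −2.53 at Enpep, Cdx1-/- replicate 1 read 6.70 at Cxcl10, 4.35 at Fgf21 and 2.45 at Nlrc5, Cdx1-/- replicate 2 read 3.44 at H2-DMb2, and Cdx1-/- replicate 3 read 5.45 at Sdhb.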

How the results depend on the processing

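Of the 261 named genes, 245 kept their direction and their side of the threshold under all 22 alternatives in which they were tested, and 16 changed, as given below or with the result. When each array was left out in turn, the number of genes passing ran from 11324 to 11792 towards SIEC and from 8349 to 8556 towards mTEC, and those at least 8-fold apart from 1134 to 1263 and from 3242 to 3666. With the replicate number of the labels as a block (the pairing of the pools), 11934 genes passed towards SIEC and 8462 towards mTEC, and no named gene or count changed its call. Genes passing towards SIEC numbered 6291 when arrays were scaled to the probes above background on every array, 19119 with no filter on dim probes and 7843 within slide 2, the last with 3 arrays. Genes passing towards mTEC numbered 2964 when only genes above background on all arrays were tested, which removes the genes not measured in SIEC. At least 8-fold differences towards SIEC numbered 677 with normexp, 1733 when scaled to the median, 631 when scaled to the probes above background on every array and 1733 in the authors' deposited table. Towards mTEC they numbered 1169 with normexp and 561 when only genes above background on all arrays were tested. Genes detected in SIEC and not mTEC numbered 235 when all arrays of a tissue were required and 364 with the highest floor of any array, an alternative chosen after seeing the data.

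List medians that turned were those of Aire partners (−0.38) and the constitutive proteasome (−0.14) when scaled to the probes above background on every array, and of the proteasome (−0.14) and ribosomal proteins (−0.071) after quantile normalization. With only genes above background on all arrays, 5 lists turned because few members were left: pancreas (0.56, 18 genes), stomach (1.83, 4 genes), germ cells (0.60, 3 genes), endothelium (0.99, 3 genes) and red cells (0.20, 4 genes). Ada passed in SIEC's direction under normexp (1.84), median scaling or the deposited table (2.41), the filter on all arrays and the mean over probes (both 1.93), and Nt5e under normexp (1.75), median scaling or the deposited table (2.21) and quantile normalization (1.90). Ptprc (0.47) and Trim21 (0.10) lost their calls when scaled to the probes above background on every array, and the call of Tnfrsf11a (−0.53) was lost within slide 2. Single genes turned where 1 SIEC array was left alone. Without the SIEC array labelled Cdx1-/- the difference was −1.04 for Cdx1, −0.66 for Nt5e, 1.68 for Xist and −6.46 for Eif2s3y, and without the one labelled Cdx1+/+ it was 1.55, 4.13, −4.88 and 1.76. With arrays of the remaining label only, the turned values were those given. The cause of these changes was not tested, other than the fewer arrays or genes that the alternatives leave. Only a bound could be given for 4220 genes above background on no SIEC array, against 159 above background on no mTEC array. Whether dimmer arrays or absent transcripts lie behind this was not tested. The 2 SIEC pools say little of how intestine varies.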
